A study of Arabidopsis thaliana with 9 samples.

Results

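The genes described here are the 39 nuclear genes of Arabidopsis thaliana that encode proteins of the chloroplast ribosome, out of 37336 loci in the count table. They were taken by locus: 24 genes of large-subunit proteins (L1 to L35), 9 genes of small-subunit proteins (S1 to S21) and 6 genes of plastid-specific ribosomal proteins (PSRP1 to PSRP6). No expression threshold entered the list, but the group of genes was chosen by someone who knew the ABA and mock values of these libraries, that is, the fold changes of its members. The fold changes, intervals and calls of the 39 genes between ABA and mock are therefore a description and test nothing. All 39 passed the filter on low counts.

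RNA was sequenced from whole wild-type (Col-0) seedlings. Seedlings aged 3 days were put into liquid culture (3 ml of Murashige and Skoog medium), where they spent 7 days under long days (light for 16 h, dark for 8 h) at 22 °C. One group was then kept for 3 h in fresh medium with 0.1% DMSO (mock, 3 libraries) and another for 3 h with 10 µM abscisic acid (ABA, the hormone of water deficit and seed dormancy, 3 libraries). The iCB group, 3 samples with 10 µM of a compound labelled iCB, was not analysed here because no count column could be tied to its labels. A DMSO content is labelled for mock only. Whole seedlings mix leaf, stem and root cells, and in such material fewer cells of a type and less RNA per cell cannot be told apart.

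Chloroplasts keep a ribosome of the bacterial type. Its RNAs and some of its proteins are encoded in the plastid genome, and the remaining proteins are encoded in the nucleus, made in the cytosol and imported, so that the organelle assembles the particle from parts of both origins. This ribosome makes the plastid-encoded subunits of the photosystems, of Rubisco and of the plastid's own RNA polymerase. Nuclear genes for photosynthesis are known to respond to ABA, which is why the nuclear part of this ribosome can be set beside its helpers: translation factors, assembly factors and the plastid transcription machinery.

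The libraries held 21585450 to 22722904 counts, and each of the 39 genes had between 1368 and 8529 counts in each library. RD29A (AT5G52310, listed as LTI78), a standard ABA-induced gene, stood at 94.7, 109 and 209 CPM (counts relative to library size, after TMM scaling) in mock replicates 1, 2 and 3, and at 6301, 6246 and 6192 in ABA replicates 1, 2 and 3. RAB18 (AT5G66400), an ABA-induced dehydrin gene, rose by 9.06 ± 0.28 on the log2 scale. Markers of green tissue and of root were both present. The summed level of 21 photosynthesis genes was 49576 to 55371 CPM in mock and 47722 to 55806 in ABA, and that of 9 root hair and endodermis genes was 83.2 to 131 CPM in mock and 102 to 104 in ABA. Loci of the plastid genome took 0.0124% to 0.0148% of the counts. The plastid-encoded partners of these proteins are not described because their 25 loci were not matched in the reference used.

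The 39 genes were expressed within a narrow band of levels in mock, with 1 gene far below it. Levels between genes are given as CPM per kilobase of coding length. The median gene stood at 376 CPM per kilobase. S17 (AT1G79850), a small-subunit protein that in bacteria binds ribosomal RNA early in assembly, was the highest, at 599, 652 and 671 CPM per kilobase in the mock libraries and 527, 621 and 620 in the ABA libraries. L29 (AT5G65220), which in bacteria lies beside the exit of the tunnel for the growing chain, followed with 501, 504 and 535 in mock and 499, 577 and 562 in ABA. PSRP5 (AT3G56910), a plastid-specific protein of the large subunit, was the third, at 477, 498 and 523 in mock and 388, 459 and 467 in ABA. S17 did not overlap the other two in mock, while L29 and PSRP5 overlapped each other.

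At the other end stood PSRP1 (AT5G24490), at 61.0, 64.0 and 72.1 CPM per kilobase in mock and 75.3, 110 and 117 in ABA. PSRP1 is related to bacterial factors that bind ribosomes during hibernation, and it is not regarded as a structural protein of the particle. L19-1 (AT4G17560), which encodes a protein at the contact between the subunits in bacteria, was next, at 214, 212 and 225 in mock and 188, 235 and 223 in ABA. L11 (AT1G32990), a protein of the site where translation factors dock, stood at 224, 243 and 247 in mock and 217, 268 and 259 in ABA, and overlapped L19-1 in mock. The highest gene exceeded the lowest 9.76-fold but exceeded the second lowest only 2.96-fold. Per kilobase of exon, untranslated parts included, S17 and PSRP1 kept the ends of the order, while the span was 8.66-fold. Ranks between the ends moved. Counted from the highest, L11 went from rank 37 to rank 33 and PSRP6 from rank 4 to rank 17.

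**Figure D1:**
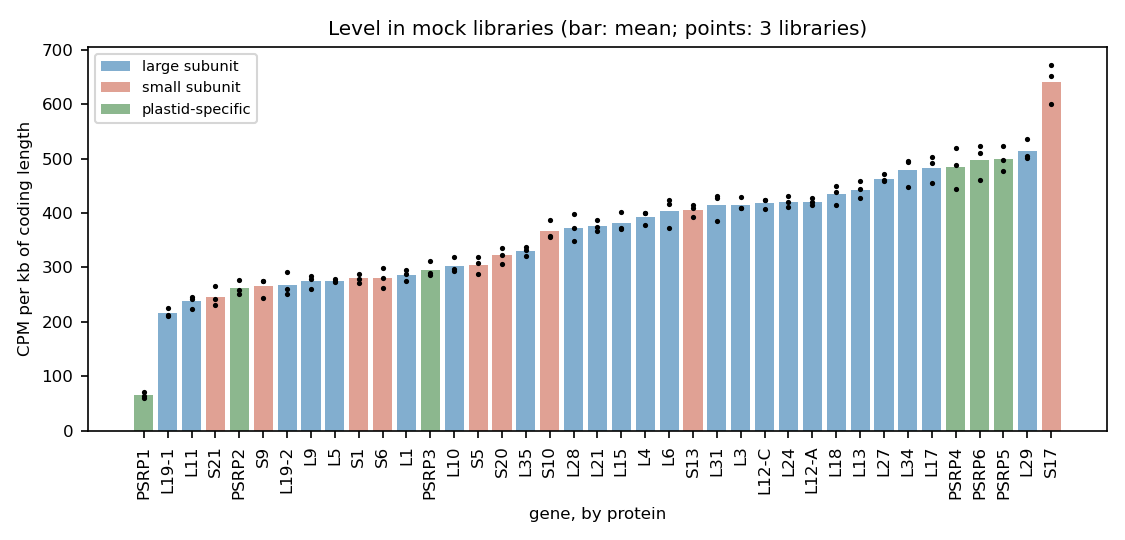
Level of each of the 39 genes in mock, as CPM per kilobase of coding length on a linear axis from 0. Bars are means of 3 libraries, points are the libraries, and colours give the subunit. PSRP1 stands at 65.7 and S17 at 641, and the remaining 37 genes lie between 217 and 514.

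Under ABA the levels of the 39 genes stayed close to those of mock. With the threshold of an adjusted p below 0.05 in edgeR's quasi-likelihood test over all 21092 tested loci (Benjamini-Hochberg), 3 of the 39 were called, where 60.4% of all tested loci were. Of the 39, 2 were called higher (PSRP1 and L1), against a background of 31.0%, and 1 was called lower (L12-C), against 29.4%. The other 36 were not called. A missed threshold does not show that a gene stayed the same, so the intervals are given as well: the 95% interval of the log2 fold change lay within 0.5 of 0 for 37 of the 39 genes, all except PSRP1 and L12-C, and for 31.2% of all tested loci. The groups did not overlap for 11 of the 39 genes (4 higher and 7 lower in ABA), where 67.9% of all tested loci showed none.

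The median log2 fold change of the 39 genes was -0.00, and that of all tested loci was -0.01. The median of the absolute log2 fold change was 0.09 for the 39 genes and 0.42 for all tested loci. Of the 39 values, 19 were above 0 and 20 below. The median standard error (SE) was 0.08 for the 39 genes and 0.11 for all loci. All of these values are relative to the TMM centre: upper-quartile factors moved the median of all loci by -0.21 and library totals by -0.23, and the share of calls that were higher, 51.3% with TMM, was then 33.7% and 32.1%. The 39 genes moved with all others, their median lying 0.01 above that of all loci with each of these scalings, and 20 of them were called lower after upper-quartile scaling, where 43.14% of all loci were, and 24 after scaling to library totals, where 44.85% were.

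**Figure D2:**
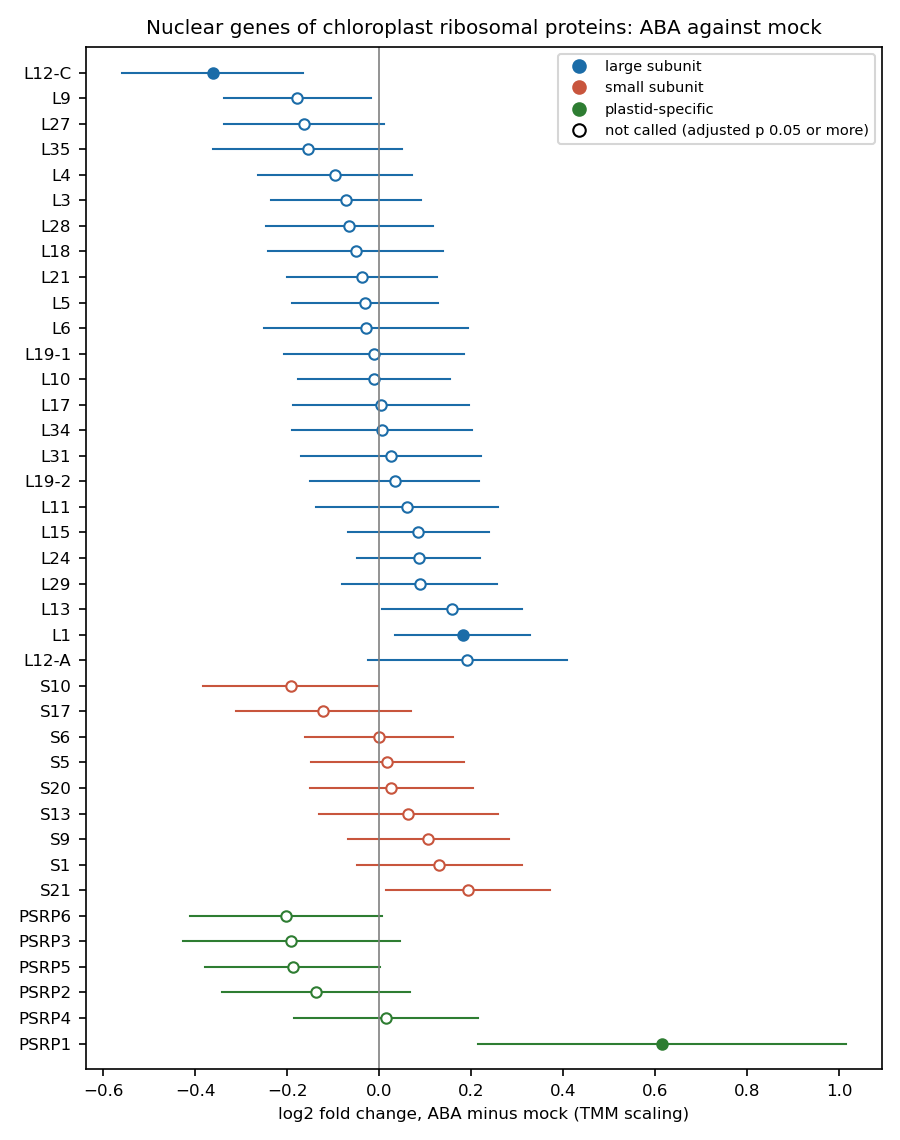
Log2 fold change, ABA minus mock, of the 39 genes (points) with its 95% interval (lines), by subunit and ordered by value. Filled points are called genes: L12-C at -0.36, L1 at 0.18 and PSRP1 at 0.61. All other points lie between -0.20 and 0.19.

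The calls among these genes were few and depended on single libraries. Without mock replicate 1, none was called higher and L9 joined L12-C among the lower. Without ABA replicate 2, none was called higher and L12-C, L27, PSRP6 and S10 were called lower, which makes 4. Without ABA replicate 1, L12-A, PSRP1 and S21 were called higher, which makes 3, and without mock replicate 3 PSRP1 and S21 were. Without mock replicate 2, L1 was the only gene called higher, and without ABA replicate 3 PSRP1 was. L12-C was called lower with each of the 6 libraries left out.

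The lowest library of each group was the same for most of the 39 genes. Every one of the 39 was lowest in ABA replicate 1 among the ABA libraries, where 35.0% of all tested loci were, and 33 of the 39 were lowest in mock replicate 1 among the mock libraries, where 33.9% of all loci were. The median level of the 39 genes was 213, 217 and 223 CPM in the mock libraries and 185, 215 and 209 in the ABA libraries. ABA replicate 1 thus stood below the other 5 libraries, and ABA replicate 2 stood within the range of mock and ABA replicate 3 just below it. The summed level of the 39 genes was 8424, 8914 and 8986 CPM in mock and 7926, 9254 and 9061 in ABA. In the median gene the SD of log2 CPM was 0.07 over the mock libraries and 0.13 over the ABA libraries, against 0.12 and 0.11 for all tested loci.

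The summed level of the photosynthesis markers did not set ABA replicate 1 apart in the same way. It was 48165 CPM there, and 55806 and 47722 in ABA replicates 2 and 3. Single markers went both ways. Some were lowest in ABA replicate 3, such as CAB1 (11467, 12468 and 10305 CPM in ABA replicates 1, 2 and 3). Others were lowest in ABA replicate 1, such as RBCS1A (6294, 7986 and 7388). The summed level of plastid translation factors was 1808 CPM in ABA replicate 1, and 2173 and 2059 in the other two ABA libraries. Sums of the genes of plastid ribosome assembly (719, 805 and 820 CPM in ABA replicates 1, 2 and 3) and of plastid transcription (824, 928 and 944) were lowest there too. The low values in ABA replicate 1 were thus not particular to the 39 genes. Without ABA replicate 1, the median log2 fold change of the 39 genes lay 0.08 above that of all tested loci. As a share of all counts, before any scaling, the 39 genes took 0.907%, 0.969% and 0.973% in mock and 0.737%, 0.842% and 0.842% in ABA.

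**Figure D3:**
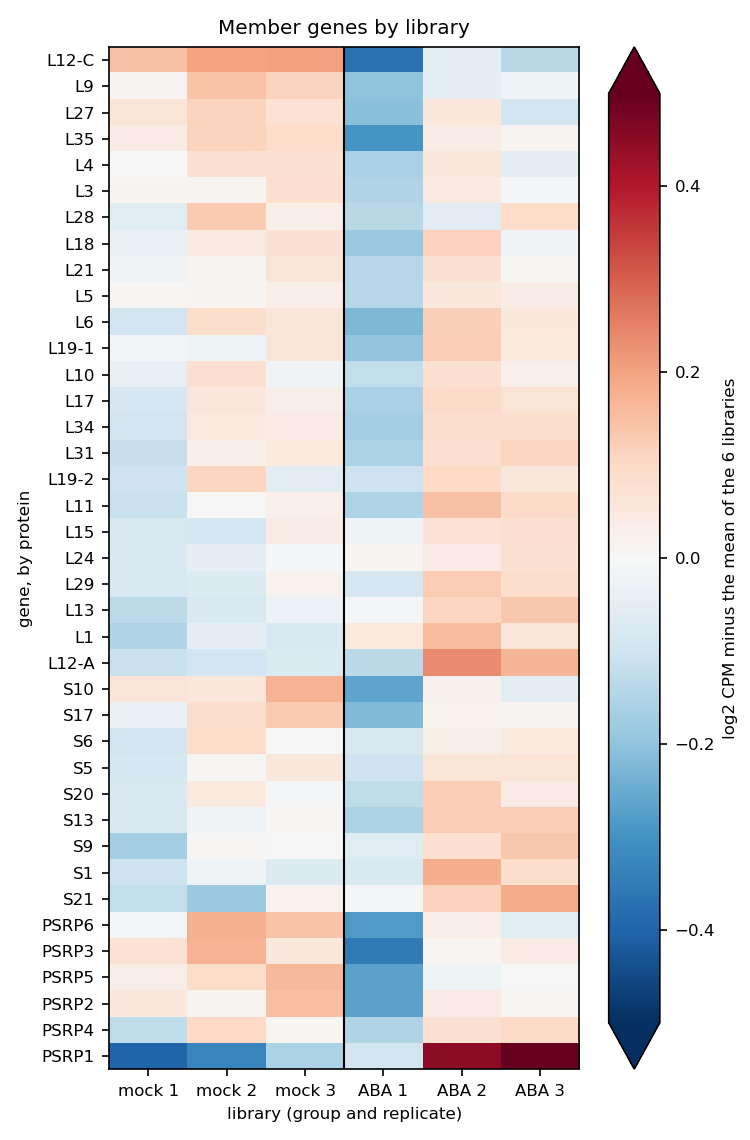
Log2 CPM of each gene in each of the 6 libraries, minus the gene's mean over the 6. Rows are the 39 genes by subunit, columns the libraries, and the colour scale is cut at -0.5 and 0.5. The column of ABA replicate 1 is the lowest of the ABA columns in all 39 rows. L12-C is high in mock and low in ABA, and PSRP1 is low in mock and high in ABA replicates 2 and 3 only.

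Large-subunit genes showed 1 call in each direction, 22 of 24 without a call and a median log2 fold change of -0.01. The clearest pattern was in the genes of L12, the protein of the flexible stalk that recruits translation factors and that stands on the particle in several copies. L12-C (AT3G27850) stood at 230, 239 and 240 CPM in mock and at 161, 202 and 189 in ABA. All ABA libraries were below all mock libraries, and the log2 fold change was -0.36 ± 0.09 (SE), 1.29-fold lower. L12-C was called lower in the main setting and in all 15 alternatives.

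L12-A (AT3G27830), a copy of the same gene nearby on chromosome 3, stood at 239, 242 and 246 CPM in mock and at 235, 305 and 291 in ABA. ABA replicate 1 was below the mock libraries and the other two above them, and the log2 fold change of 0.19 ± 0.10 was not called. Another copy between them, L12-B (AT3G27840), was listed at 0 in all 6 libraries. The ratio of L12-C to L12-A counts needs no scaling between libraries. It was 0.962, 0.986 and 0.973 in mock and 0.682, 0.662 and 0.650 in ABA, so that the copies were about equal in mock and L12-C gave fewer counts than L12-A in each ABA library. Summed, L12-A and L12-C stood at 469, 481 and 486 CPM in mock and at 396, 506 and 480 in ABA, with overlap.

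The coding sequences of L12-A and L12-C agree at 93.4% of 564 aligned bases. Of the 50-base windows in their exons, 225 of 1241 (18.1%) in L12-A and 225 of 910 (24.7%) in L12-C also occur elsewhere in the genome, so the counts of both are uncertain where the authors' counting could split or drop such reads. S21 was the only other member with such windows (104 of 1203, 8.65%). No source used here says how the counting treated reads with several matches.

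The 250 bases before the annotated starts of the L12 copies are shown because L12-C was called lower and L12-A was not, while their flanks hold a common element. Both lie on the plus strand of chromosome 3 in TAIR10.1, at chr3:10318205-10318454 for L12-A and chr3:10324538-10324787 for L12-C. Capitals mark an annotated tRNA gene of 72 bases on the same strand (AT3G27825 before L12-A, AT3G27845 before L12-C). Sequences are from RefSeq.
L12-A: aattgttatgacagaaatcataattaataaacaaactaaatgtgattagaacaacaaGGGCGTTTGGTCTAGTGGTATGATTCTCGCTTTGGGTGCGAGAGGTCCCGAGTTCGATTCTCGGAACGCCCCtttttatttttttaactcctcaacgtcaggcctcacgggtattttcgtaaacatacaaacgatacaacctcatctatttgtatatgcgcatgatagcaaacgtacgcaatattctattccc
L12-C: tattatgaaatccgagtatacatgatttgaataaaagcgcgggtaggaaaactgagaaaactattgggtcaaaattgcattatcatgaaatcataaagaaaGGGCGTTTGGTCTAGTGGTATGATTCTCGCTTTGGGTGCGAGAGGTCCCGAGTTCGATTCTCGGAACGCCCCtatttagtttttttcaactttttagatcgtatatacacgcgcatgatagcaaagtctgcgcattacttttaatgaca
The tRNA genes are identical, end 121 bases before the start of L12-A and 77 bases before that of L12-C, and form most of the longest run the windows share, of 75 bases. Outside them the longest run the windows share is gcgcatgatagcaaa, of 15 bases, which ends 21 bases before the start of L12-A and 24 bases before that of L12-C. Neither window holds any of the 6 motifs searched, which are listed further on.

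**Figure D4:**
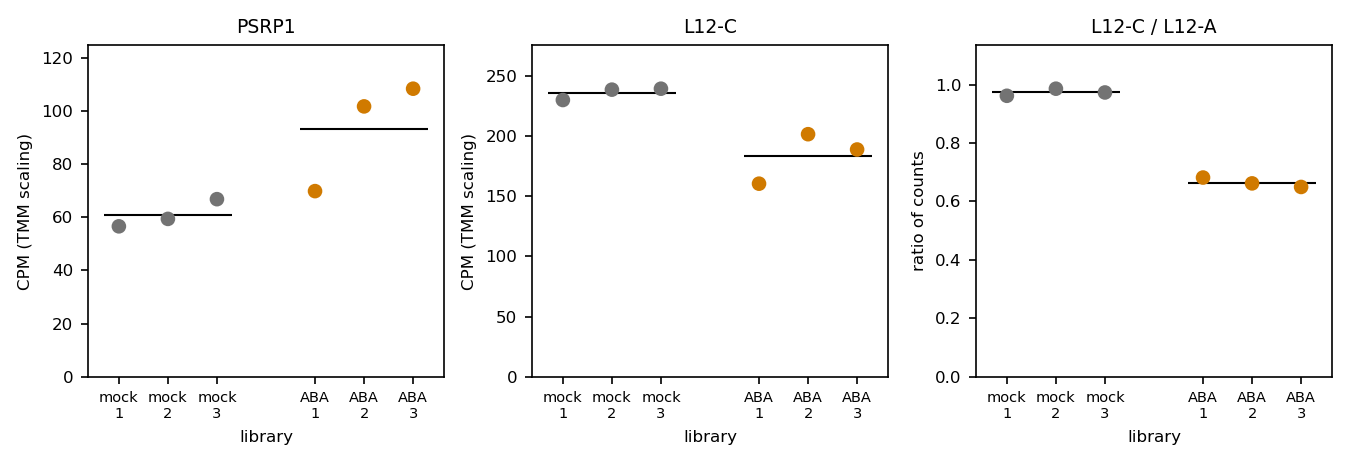
PSRP1 and L12-C in CPM, and the ratio of L12-C to L12-A counts, in each of the 6 libraries. Points are libraries, lines are group means, and axes start at 0. PSRP1 is 56.5 to 66.8 in mock and 69.8 to 108 in ABA, L12-C is 230 to 240 and 161 to 202, and the ratio is 0.962 to 0.986 and 0.650 to 0.682.

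L1 (AT3G63490), which in bacteria forms the stalk on the side where spent tRNA leaves, stood at 286, 307 and 300 CPM in mock and at 328, 354 and 331 in ABA. All ABA libraries were above all mock libraries. The log2 fold change was 0.18 ± 0.06 (1.13-fold). The size is below the shift between scalings: it was -0.03 and -0.05 after scaling by upper quartiles and by totals. A gene on the opposite strand that overlaps L1, AT3G63500, rose by 0.33 ± 0.07, from 62.7, 54.2 and 59.5 CPM in mock to 76.6, 72.1 and 72.8 in ABA. No source used here gives the strand setting of the counting, and the part of this neighbour in the value of L1 was not tested.

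The other large-subunit genes lay between -0.18 and 0.16. L9 (-0.18 ± 0.07), L27 (-0.16 ± 0.08) and L35 (-0.16 ± 0.09) were below mock in all ABA libraries without being called. L27 is a protein near the site of peptide bond formation in bacteria. L13 (0.16 ± 0.07) and L24 (0.09 ± 0.06), early binders of ribosomal RNA in bacteria, were above mock in all ABA libraries, also without a call. L10, the protein that holds L12 on the particle, stood at -0.01 ± 0.07, L11 beside it at 0.06 ± 0.09, and L3 and L4, which reach into the core of the bacterial subunit, at -0.07 ± 0.07 and -0.10 ± 0.07. The 95% intervals were -0.18 to 0.15 for L10 and -0.14 to 0.26 for L11. Whether these genes differ from L12-C was not tested.

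L17 (AT3G54210), also at the tunnel exit, had the second smallest change of all 39 genes. It stood at 290, 319 and 313 CPM in mock and at 274, 328 and 322 in ABA, a log2 fold change of 0.00 ± 0.08. The groups overlapped throughout.

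The pair of L19 genes, unlike the L12 copies, kept a like ratio in both groups. L19-1 stood at 145, 144 and 152 CPM in mock and at 127, 159 and 151 in ABA (-0.01 ± 0.09). L19-2 (AT5G47190) stood at 174, 201 and 180 in mock and at 174, 200 and 194 in ABA (0.03 ± 0.08). The ratio of L19-2 to L19-1 counts was 1.20, 1.40 and 1.18 in mock and 1.37, 1.26 and 1.29 in ABA, with overlap. Their coding sequences agree at 82.6% of 672 aligned bases, and no 50-base window of their exons occurs elsewhere.

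None of the 9 small-subunit genes was called, and their median log2 fold change was 0.03. S6 (AT1G64510), a protein of the platform of the subunit, had the smallest change of all 39 genes. It stood at 183, 208 and 195 CPM in mock and at 185, 199 and 202 in ABA (-0.00 ± 0.07). The gene that overlaps S6 on the opposite strand, AT1G64520, rose by 0.39 ± 0.06. This neighbour stood at 87.7, 83.2 and 92.1 CPM in mock and at 110, 115 and 119 in ABA. Its part in the value of S6 was not tested. S21 (0.19 ± 0.08) and S1 (0.13 ± 0.08), a protein that binds messenger RNA in bacteria, were at the upper end, and S10 (-0.19 ± 0.08) and S17 (-0.12 ± 0.08) at the lower end. S10 was below mock in all 3 ABA libraries, and S21, S1 and S17 overlapped. S5, S13, S20 and S9 lay between 0.02 and 0.11.

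The plastid-specific genes were the most uneven class, with 1 call, a median of -0.16 and both the highest and the second lowest fold change of the 39. PSRP1 stood at 56.5, 59.3 and 66.8 CPM in mock and at 69.8, 102 and 108 in ABA. ABA replicate 1 was just above the highest mock library and the other two were well above it. The log2 fold change was 0.61 ± 0.17 (1.53-fold), with a 95% interval from 0.22 to 1.01. Without PSRP1 the highest value among the members was 0.19. As a share of the median member in the same library, PSRP1 stood at 26.6%, 27.4% and 30.0% in mock and at 37.8%, 47.2% and 51.9% in ABA, again without overlap.

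The call of PSRP1 was lost after scaling by upper quartiles (0.41, adjusted p = 0.068 in edgeR) or totals (0.38, adjusted p = 0.077), and without mock replicate 1 (0.56), mock replicate 2 (0.60) or ABA replicate 2 (0.54). The direction was the same in all of these, and without ABA replicate 1 the value was 0.77. The gene that overlaps PSRP1 on the opposite strand, AT5G24500, stood at 26.6, 25.0 and 27.4 CPM in mock and at 27.8, 26.7 and 28.1 in ABA (0.06 ± 0.06). The groups of this neighbour did overlap, and its part in the value of PSRP1 was not tested.

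The other 5 plastid-specific genes encode proteins found on the particle itself. PSRP6 (AT5G17870), of the large subunit, stood at 179, 204 and 199 CPM in mock and at 148, 185 and 173 in ABA (-0.20 ± 0.09). PSRP5, also of the large subunit, stood at 213, 223 and 234 in mock and at 173, 205 and 209 in ABA (-0.19 ± 0.08). PSRP5 was below mock in all ABA libraries, while PSRP6 overlapped through ABA replicate 2.

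PSRP2 to PSRP4 belong to the small subunit. PSRP3 (AT1G68590), whose relatives occur in cyanobacteria, stood at 146, 156 and 143 CPM in mock and at 108, 139 and 142 in ABA (-0.19 ± 0.10). PSRP2 (AT3G52150), which carries RNA-binding domains, stood at 197, 192 and 210 in mock and at 158, 195 and 191 in ABA (-0.14 ± 0.09). ABA replicate 1 was the lowest value of each. All ABA libraries of PSRP3 were below mock, the highest of them by little, and PSRP2 overlapped. PSRP4 (AT2G38140), related to a small bacterial protein of the subunit's head, stood at 158, 186 and 174 in mock and at 156, 183 and 185 in ABA (0.02 ± 0.09), with overlap throughout. PSRP3 overlaps AT1G68585 on the opposite strand, which fell by 1.03 ± 0.15 from 8.02, 6.05 and 8.24 CPM to 3.72, 3.47 and 3.74. A second gene of the PSRP3 family outside the 39, AT5G15760, stood at 5.50, 5.54 and 5.13 CPM in mock and at 3.91, 3.87 and 4.50 in ABA, and fell by 0.40 ± 0.13.

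The 250 bases before PSRP1 (plus strand, chr5:8365351-8365600) and before L1 (plus strand, chr3:23443953-23444202; both TAIR10.1, from RefSeq) are shown because these are the members called higher. Capitals mark matches to the motifs searched.
PSRP1: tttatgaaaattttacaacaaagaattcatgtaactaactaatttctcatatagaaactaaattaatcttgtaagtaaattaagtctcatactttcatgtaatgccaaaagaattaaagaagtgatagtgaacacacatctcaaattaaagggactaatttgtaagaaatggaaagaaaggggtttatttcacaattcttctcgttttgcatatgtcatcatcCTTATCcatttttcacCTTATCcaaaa
L1: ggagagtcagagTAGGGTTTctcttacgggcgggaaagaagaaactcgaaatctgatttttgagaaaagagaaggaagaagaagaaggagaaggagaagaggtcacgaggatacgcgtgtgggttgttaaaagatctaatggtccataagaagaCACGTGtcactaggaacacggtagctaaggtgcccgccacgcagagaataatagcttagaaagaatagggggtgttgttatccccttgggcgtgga
PSRP1 holds the I-box letters, a motif described in promoters of light-regulated genes, 2 times, each read here on the opposite strand. L1 holds a telo box on the opposite strand and a G-box, whose letters include the core of ABA-responsive elements (ABRE). PSRP1 has no ABRE core in this window.

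The motifs were searched on both strands in the 250 bases before each of the 39 genes and of 27443 genes in all. Site II (TGGGCC or TGGGCT), known from promoters of ribosomal protein genes, was in 14 of 39 windows (35.9%) and in 19.2% of all. The telo box (AAACCCTA) was in 4 (10.3%) and in 4.49% of all, and the I-box (GATAAG) in 10 (25.6%) and in 12.3% of all. The ABRE core (ACGTG) was in 11 windows (28.2%) against 22.9%, and the G-box (CACGTG, which contains the ABRE core) in 3 (7.69%) against 6.49%. TATAAA was in 20 (51.3%) against 47.3%. In the windows of the 20184 tested genes among these, the shares were 21.9% for site II, 3.54% for the telo box and 12.2% for the I-box. They were 24.3% for the ABRE core, 7.59% for the G-box and 46.4% for TATAAA. Site II was thus in more of the members' windows than of all windows or of tested ones, L19-1 holding 5 matches, and 25 of the 39 windows held none. A match is a run of letters and not a bound site.

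The genes that work with this ribosome are set beside it, as lists whose members were taken by locus with earlier results of these data known. The counts in these lists stand beside the same background, 29.4% of all tested loci called lower, 31.0% called higher and 60.4% called in all. Of 10 plastid translation factor genes, 5 fell and none rose, a share called below that of all loci, and the median log2 fold change was -0.24. SCO1 (AT1G62750), elongation factor G, fell by 0.54 ± 0.10 from 312 ± 14.5 CPM (SD, n = 3) to 215 ± 28.2. The gene of initiation factor 3, AT2G24060, fell by 0.41 ± 0.08, emb2726 (AT4G29060), elongation factor Ts, by 0.37 ± 0.08, and FUG1 (AT1G17220), initiation factor 2, by 0.29 ± 0.11. The number lower was 4 without mock replicate 2, mock replicate 3, ABA replicate 1 or ABA replicate 3. It was 6 without ABA replicate 2 or with the replicate number as a block, and 7 with organelle loci removed. With the stricter filter on low counts it was 8, and with upper-quartile factors or library totals 9.

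Of 13 genes of plastid ribosome assembly and ribosomal RNA processing, 11 fell (29.4% of all loci) and none rose (31.0%), with a median of -0.41. The RNA helicase gene RH3 (AT5G26742, listed as emb1138), which acts in assembly of the large subunit, stood at 530, 557 and 547 CPM in mock and at 272, 300 and 300 in ABA. The groups lay far apart, and RH3 fell by 0.91 ± 0.07. The RNase J gene emb2746 (AT5G63420) fell by 0.75 ± 0.09, the helicase gene RH22 (AT1G59990) by 0.69 ± 0.07 and the RNase E gene (AT2G04270) by 0.64 ± 0.10. The number lower was 11 to 13 in every alternative.

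Of 19 genes of plastid transcription, 12 fell and 2 rose, against 29.4% and 31.0% of all loci, with a median of -0.41. SIG5 (AT5G24120, listed as SIGE), a sigma factor that guides the plastid RNA polymerase under stress, stood at 4.88, 6.82 and 5.82 CPM in mock and at 56.0, 52.4 and 57.1 in ABA, and rose by 3.24 ± 0.11. SCA3 (AT2G24120), the phage-type RNA polymerase of the plastid, fell by 1.16 ± 0.08. The genes of a pair of proteins attached to the bacterial-type polymerase fell as well, PTAC2 (AT1G74850) by 0.79 ± 0.07 and FSD3 (AT5G23310) by 0.76 ± 0.08. The number higher was 3 without mock replicate 2 or with the replicate number as a block, and 1 with upper-quartile factors or library totals, where the number lower was 16.

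Of 8 tested regulators of nuclear chloroplast genes, 4 fell and 2 rose (all loci 29.4% and 31.0%). CGA1 (AT4G26150) and GNC (AT5G56860), related GATA factors that promote chloroplast development, fell by 1.93 ± 0.31 and 0.91 ± 0.16. GLK1 (AT2G20570, listed as GPRI1), an activator of photosynthesis genes, fell by 1.33 ± 0.09, from 112 ± 8.85 CPM (SD, n = 3) to 44.6 ± 4.61. GLK2 (AT5G44190) went the other way. It stood at 42.7, 52.6 and 51.9 CPM in mock and at 62.7, 63.1 and 64.1 in ABA, and rose by 0.37 ± 0.08. GUN1 (AT2G31400), a plastid protein of signalling to the nucleus, rose by 0.74 ± 0.07. ABI4, the ninth of the list, was listed at 0 in all 6 libraries.

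All 24 cytosolic ribosomal protein genes of the list fell, with a median of -0.49, and all 24 were called lower in every alternative. AT1G70600 fell by 0.77 ± 0.06, RPL23AB by 0.68 ± 0.06, RPS5B by 0.64 ± 0.06 and RPS6 by 0.61 ± 0.08. The cytosolic list ran from -0.77 to -0.33, while the 39 chloroplast genes ran from -0.36 to 0.61. Of the 21 photosynthesis markers 4 fell and 1 rose, with a median of -0.05. Whether these lists differ from the chloroplast ribosomal proteins was not tested.

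**Figure D5:**
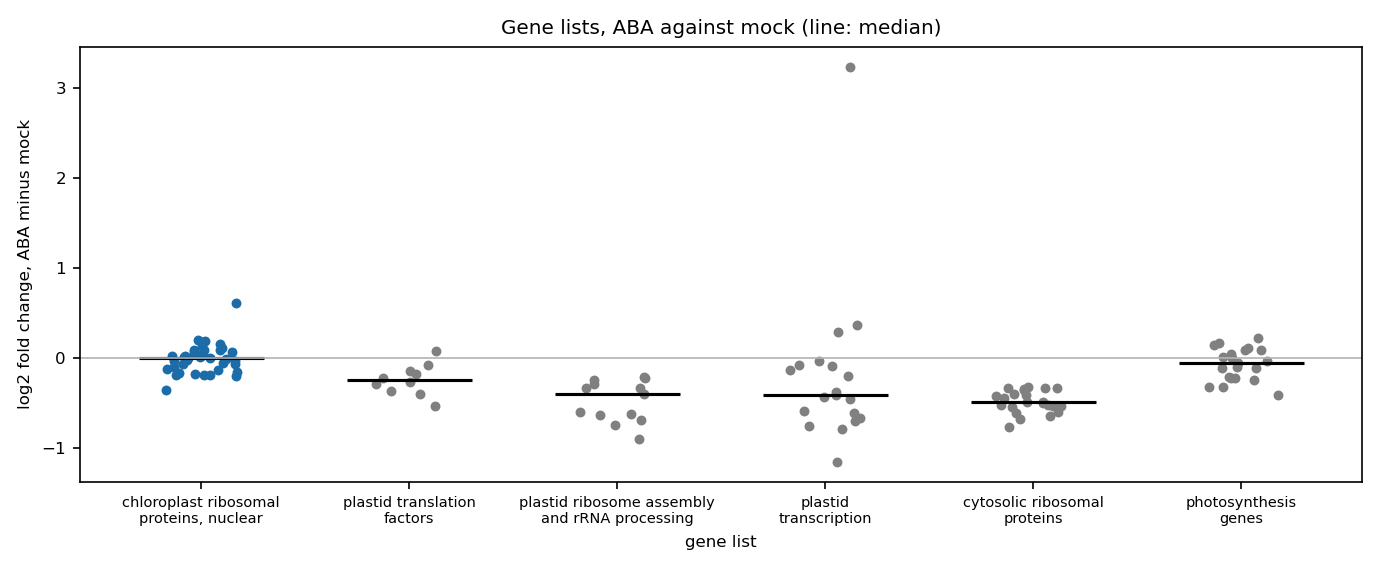
Log2 fold change, ABA minus mock, of each tested gene (points) in 6 gene lists, with the list median (line). Medians are -0.00 for the 39 chloroplast ribosomal protein genes, -0.24 for plastid translation factors, -0.41 for assembly and for transcription, -0.49 for cytosolic ribosomal proteins and -0.05 for photosynthesis genes. The point at 3.24 is SIG5.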

How the data were processed

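Libraries came from a strand-specific mRNA kit and from independent biological replicates, per the labels' protocols. TAIR10, STAR, cutadapt, FastQC and DESeq2 are named in the submitters' processing notes. No source used here gives versions, names the program that counted reads, or says which strand setting it had or how it treated reads with several matches.

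The values are raw counts per locus, deposited without normalization by the authors. Of its columns, 6 matched mock and ABA labels, and 3 matched no label and were not used. edgeR 4.0.16 (R 4.3.3) was run on these 6 libraries: filterByExpr kept 21092 loci, TMM set the scaling, and glmQLFTest after a robust glmQLFit gave the p-values. Calls need an adjusted p (Benjamini-Hochberg, all loci) below 0.05, and "rose" or "fell" is used of called genes. An SE is the absolute log2 fold change over the root of the F statistic, and intervals are 95% intervals. The edgeR fit was tested on simulated counts in which few genes changed, evenly in both directions. Most loci were called in these data, so that test cannot check the TMM centre here.

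Replicate pairs differed beyond sampling noise (chi-square over degrees of freedom 6.64 to 14.7). The labels give independent biological replicates and no batch, so the numbers were not taken as pairing. Same-numbered samples of the groups deviated together with correlations of 0.07, 0.08 and 0.20, the highest for each sample. These values do not settle whether the samples were paired.

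The members, lists and tests were chosen with earlier results of these data known. Values in every library are given for called members, the 3 highest and 3 lowest levels, the plastid-specific genes, the L12 and L19 pairs and the 2 smallest changes. From each list, up to 4 called genes with the largest change are named. Other genes with values were picked with their values in view. AT5G46580 was left out of the assembly list because the reference does not name its role, and 25 plastid-genome loci were not used. Symbols, lengths and sequences came from RefSeq TAIR10.1, matched by locus. The counts carry no coordinates.

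Alternatives were DESeq2 1.42.0, limma-voom (limma 3.58.1), RLE, upper-quartile or total scaling, organelle loci removed, no filter or a mean of at least 5 CPM, the replicate number as a block, and each library left out.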

Additional observations from a re-analysis of the deposited data

How the results depend on the processing

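With main settings 2 chloroplast ribosomal protein genes were called higher and 1 lower, and so they were with DESeq2 and limma-voom. The number higher was 0 with either upper-quartile or library-total scaling, and 1 with organelle loci removed, with no filter and with the stricter filter. The number lower was 20 (upper quartile, 43.14% of all loci), 24 (library totals, 44.85%), 6 with the stricter filter (33.67%), and 2 with RLE factors and with organelle loci removed. With the replicate number as a block it was 4 lower and 3 higher, against 1 and 2 without the block, and every sample's deviations correlated best with those of its own number (0.07, 0.08 and 0.20, others -0.12 to 0.04), a hint from the data and not from the design. Leaving out each library gave 0 to 3 higher and 1 to 4 lower. The median log2 fold change was -0.21 (upper quartile) and -0.23 (library totals), by construction of the scaling, since the median of all loci moved alike, and was within the replicate spread of the main value elsewhere. L1 (0.18) reversed to -0.027 (upper quartile) and -0.048 (library totals), and its call was also lost with organelle loci removed, no filter, the stricter filter, and without mock replicate 1, mock replicate 3 or any single ABA replicate. The causes of the other changes were not tested. With 3 libraries a group and a median SE of 0.08, changes of the size seen in most of these genes could not be told from 0.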
